A study of Rattus norvegicus with 8 samples.

Results

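Classic marker genes of the hippocampal fields CA3 and CA2, 10 in all, were followed through rat slice cultures in which the fields had been dissected apart. The members were taken by gene symbol. They comprised 4 CA3 markers (Nectin3, Bok, Plagl1 and Coch) and 6 CA2 markers (Pcp4, Rgs14, Amigo2, Necab2, Cacng5 and Map3k15). In the platform annotation 9 of the 10 genes had a probe set with that single symbol, 13 probe sets among 31099 in all (14217 gene symbols had such a probe set), and Map3k15 had none and is not analysed here. Of the 13 probe sets 10 were bright enough to be tested, which covered 8 genes, since all probe sets of mean log2 intensity under the 40th percentile were left out of the tests. The dim ones were the only probe set of Cacng5, the third of Nectin3 and the second of Necab2, and their values are given without a call.

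Each of the 8 arrays held RNA of 15 hippocampal slice cultures (thin explants of rat hippocampus kept in a dish), subdissected and taken at 7 days. There were 1 CA3 lesion array, 3 CA3 control arrays, 1 CA1 lesion array and 3 CA1 control arrays. The labels do not state what the lesion was or when day counting began, name no strain, genotype or age, and do not say with which dissected field the CA2 tissue went. They do not tie any pool to its own animals or preparation. The p-values therefore reflect the spread between control arrays of the same field and no more, since each lesion group is 1 array. That spread may be technical.

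In the hippocampal circuit, granule cells of the dentate gyrus drive CA3 pyramidal cells through mossy fibres, and CA3 cells drive CA1 pyramidal cells through Schaffer collaterals. CA2 is a small field between CA3 and CA1 whose pyramidal cells lack strong mossy fibre input, resist some forms of synaptic potentiation and are known in rodents for a part in social memory. These genes serve as markers because in situ hybridisation in rodent brain places their transcripts over CA3 or CA2, although several are also made in other brain cells.

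The promoters of Nectin3, Rgs14 and Pcp4 are shown because Nectin3 and Rgs14 were the members whose CA3 and CA1 controls did not overlap, and Pcp4 the member with the smallest p for the mean lesion effect. The sequences run 5′ to 3′ on the strand of the gene, from 250 bases before to 50 bases after the start, and come from RefSeq on the GRCr8 assembly (the array files name no build). They lie at chr11:67826694-67826993 on the plus strand for Nectin3, chr17:9268184-9268483 on the minus strand for Rgs14 and chr11:49269936-49270235 on the plus strand for Pcp4. Capitals mark every match, on either strand, to the GC box GGGCGG, the CCAAT box CCAAT, the TATA box TATAAA, the cyclic AMP response half-site TGACG and the E-box CANNTG.
Nectin3: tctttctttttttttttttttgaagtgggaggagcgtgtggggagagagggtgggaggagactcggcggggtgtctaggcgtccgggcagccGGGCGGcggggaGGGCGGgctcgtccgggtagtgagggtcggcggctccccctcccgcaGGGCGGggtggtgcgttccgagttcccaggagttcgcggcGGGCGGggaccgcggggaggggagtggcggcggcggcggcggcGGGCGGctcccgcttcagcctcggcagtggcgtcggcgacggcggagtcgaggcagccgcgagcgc
Rgs14: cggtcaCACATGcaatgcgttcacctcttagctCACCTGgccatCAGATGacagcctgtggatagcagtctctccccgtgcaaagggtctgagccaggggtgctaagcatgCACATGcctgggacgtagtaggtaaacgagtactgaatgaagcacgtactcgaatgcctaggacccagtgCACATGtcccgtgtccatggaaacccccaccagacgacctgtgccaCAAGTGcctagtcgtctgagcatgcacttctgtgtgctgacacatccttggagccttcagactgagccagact
Pcp4: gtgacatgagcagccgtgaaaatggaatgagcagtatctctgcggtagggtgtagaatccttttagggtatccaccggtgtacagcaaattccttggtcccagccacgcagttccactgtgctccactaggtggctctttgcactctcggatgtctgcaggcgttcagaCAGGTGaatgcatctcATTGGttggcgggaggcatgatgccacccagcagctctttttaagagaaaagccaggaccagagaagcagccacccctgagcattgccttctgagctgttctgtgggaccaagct

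The Nectin3 window held 5 GC boxes and no other match, the Rgs14 window 6 E-boxes and no other match, and the Pcp4 window 1 E-box and 1 CCAAT box. No base was shared between matches. Over 33465 rat promoter windows of the same length, 33.1% held a GC box, 72.1% an E-box, 37.5% a CCAAT box, 14.2% a TATA box and 21.2% the half-site. Of the 10 members, 8 had a promoter in the table, without Bok and Map3k15. Their GC content ran from 53.0% in Cacng5, 53.3% in Pcp4 and 55.3% in Rgs14 to 85.7% in Necab2, against a median of 51.7% over all windows. The 4 windows of Nectin3 (73.3%), Plagl1 (70.7%), Coch (73.7%) and Amigo2 (83.7%) lay between. A match describes letters in the window and is no evidence of binding.

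The arrays were alike in overall level, with a 2% trimmed mean of 2501 on each and median intensities from 560 to 814. All values below are log2(intensity + 16), so a difference of 1 is a doubling on that scale, and dim probe sets are understated. The 3′ to 5′ signal ratio of Gapdh, a sign of RNA quality, was 5.23 in the CA3 lesion array against 3.75 to 3.93 in the CA3 controls, and 4.65 in the CA1 lesion array against 3.71, 4.98 and 5.0 in the CA1 controls. Its part in the results was not tested. The labelled fields were also read by 7 tested CA1 pyramidal markers outside the members, a list drawn up with earlier results of these arrays known and so no independent check of the dissection. Their median deviation from the mean of the 8 arrays was -1.85 to -0.99 in the CA3 controls against 0.91 to 1.65 in the CA1 controls. All 7 were lower in CA3, and 4 of them (Pou3f1, Fibcd1, Mpped1 and Gpr161) had an adjusted p under 0.05 in limma.

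Among the members, 1 probe set of 1 gene separated CA3 from CA1 control cultures past the threshold, and it was the brightest of Nectin3, an immunoglobulin-type adhesion molecule that in mouse sits at mossy fibre contacts on CA3 dendrites. Nectin3 measured 12.02, 12.23 and 11.77 in CA3 controls 1 to 3, against 10.16, 10.39 and 10.38 in CA1 controls 1 to 3 (probe set 1378027_at). The lowest CA3 control lay above the highest CA1 control. The difference was 1.69 ± 0.24 (SE, 3 arrays in each field, adjusted p = 0.0138 in limma), or 3.24-fold higher in CA3, with a 95% interval of 1.16 to 2.22. Fewer cells of a type and less RNA per cell cannot be told apart in such pools, here or in the results that follow.

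The call for Nectin3 rested on few arrays although its size did not. In limma the adjusted p was 0.0632 when CA1 control 1 was left out and 0.0717 when CA1 control 2 was. It was 0.0876 when CA3 control 1 was left out and 0.128 when CA3 control 2 was, while the difference stayed between 1.58 and 1.81 whichever single array was left out. With variances that did not follow intensity it was 0.115.

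The other probe sets of Nectin3 did not show this difference. The second (1385316_at) measured 10.62, 10.84 and 10.72 in the CA3 controls, against 10.29, 11.50 and 11.08 in the CA1 controls. The fields overlapped, and the difference was -0.23 ± 0.32 (SE, n = 3 each, adjusted p = 0.883 in limma), with a 95% interval of -0.95 to 0.49 that does not reach the value of the brightest probe set. The third (1377714_at) was dim and scattered, at 7.51, 5.39 and 8.66 in the CA3 controls, against 5.42, 7.72 and 8.58 in the CA1 controls. The files used here do not say which transcripts each probe set reads.

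**Figure D1:**
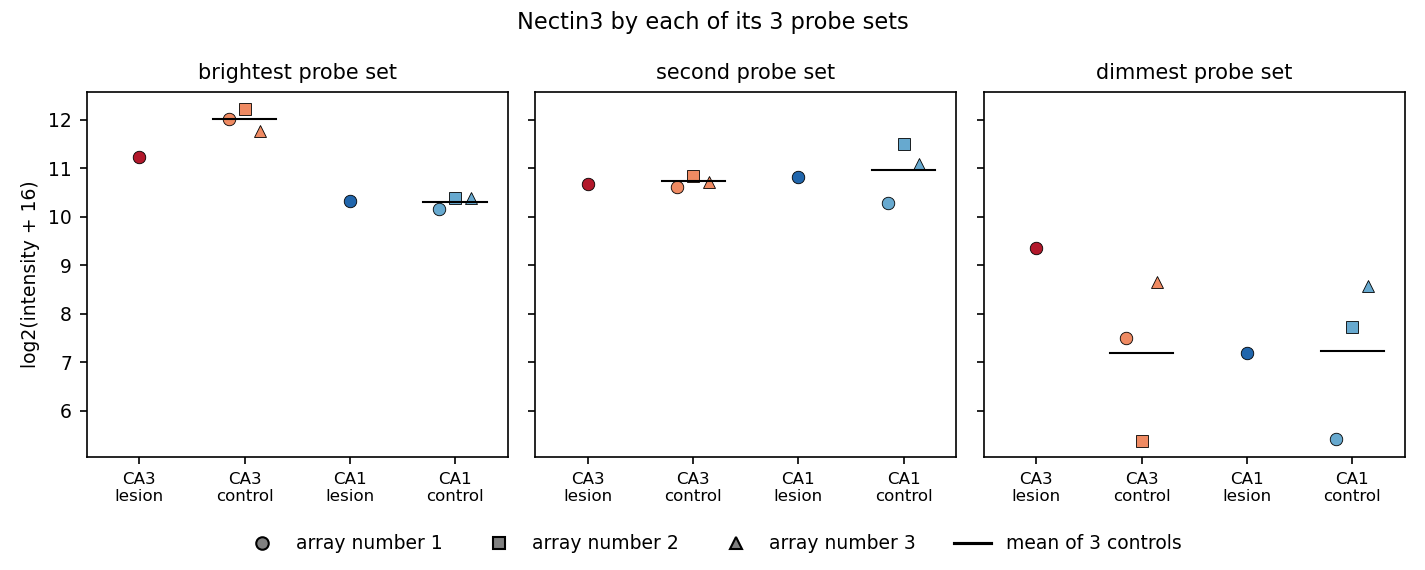
Log2(intensity + 16) of the 3 Nectin3 probe sets on each array, by group, with the number of the array in the labels as the symbol and the mean of 3 controls as a line. The CA3 controls (11.77 to 12.23) lie clear of the CA1 controls (10.16 to 10.39) in the brightest probe set and overlap them in the others.

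Bok, a member of the BCL2 family of cell death regulators, was the brightest of the CA3 markers' probe sets relative to the rest of the array, at the 92.1 percentile of mean intensity. Its brighter probe set (1373733_at) measured 13.97, 13.57 and 13.38 in the CA3 controls, against 13.69, 12.91 and 12.40 in the CA1 controls. CA1 control 1 lay above CA3 controls 2 and 3, so the fields overlapped. The difference was 0.64 ± 0.30 (SE, n = 3 each, adjusted p = 0.623 in limma), with a 95% interval of -0.03 to 1.31. The other Bok probe set (1369084_a_at) differed by 0.37 ± 0.38, and by -0.04 without CA1 control 3.

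Plagl1 and Coch scattered too widely between replicates to place them. Plagl1, an imprinted zinc finger transcription factor, measured 8.61, 8.94 and 9.62 in the CA3 controls, against 8.20, 9.60 and 6.33 in the CA1 controls. Its mean was higher in CA3 by 1.01 ± 0.85 (SE, n = 3 each, adjusted p = 0.793 in limma), and by 0.16 without CA1 control 3, whose value was the lowest of the 8 arrays. Coch encodes cochlin, a secreted matrix protein best known from the inner ear. It measured 7.98, 8.89 and 8.55 in the CA3 controls, against 8.17, 10.87 and 9.02 in the CA1 controls. Its mean thus ran against its use as a CA3 marker, at -0.88 ± 0.75 (adjusted p = 0.794), and at -0.12 without CA1 control 2. The 95% intervals ran from -0.89 to 2.91 for Plagl1 and from -2.54 to 0.78 for Coch.

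**Figure D2:**
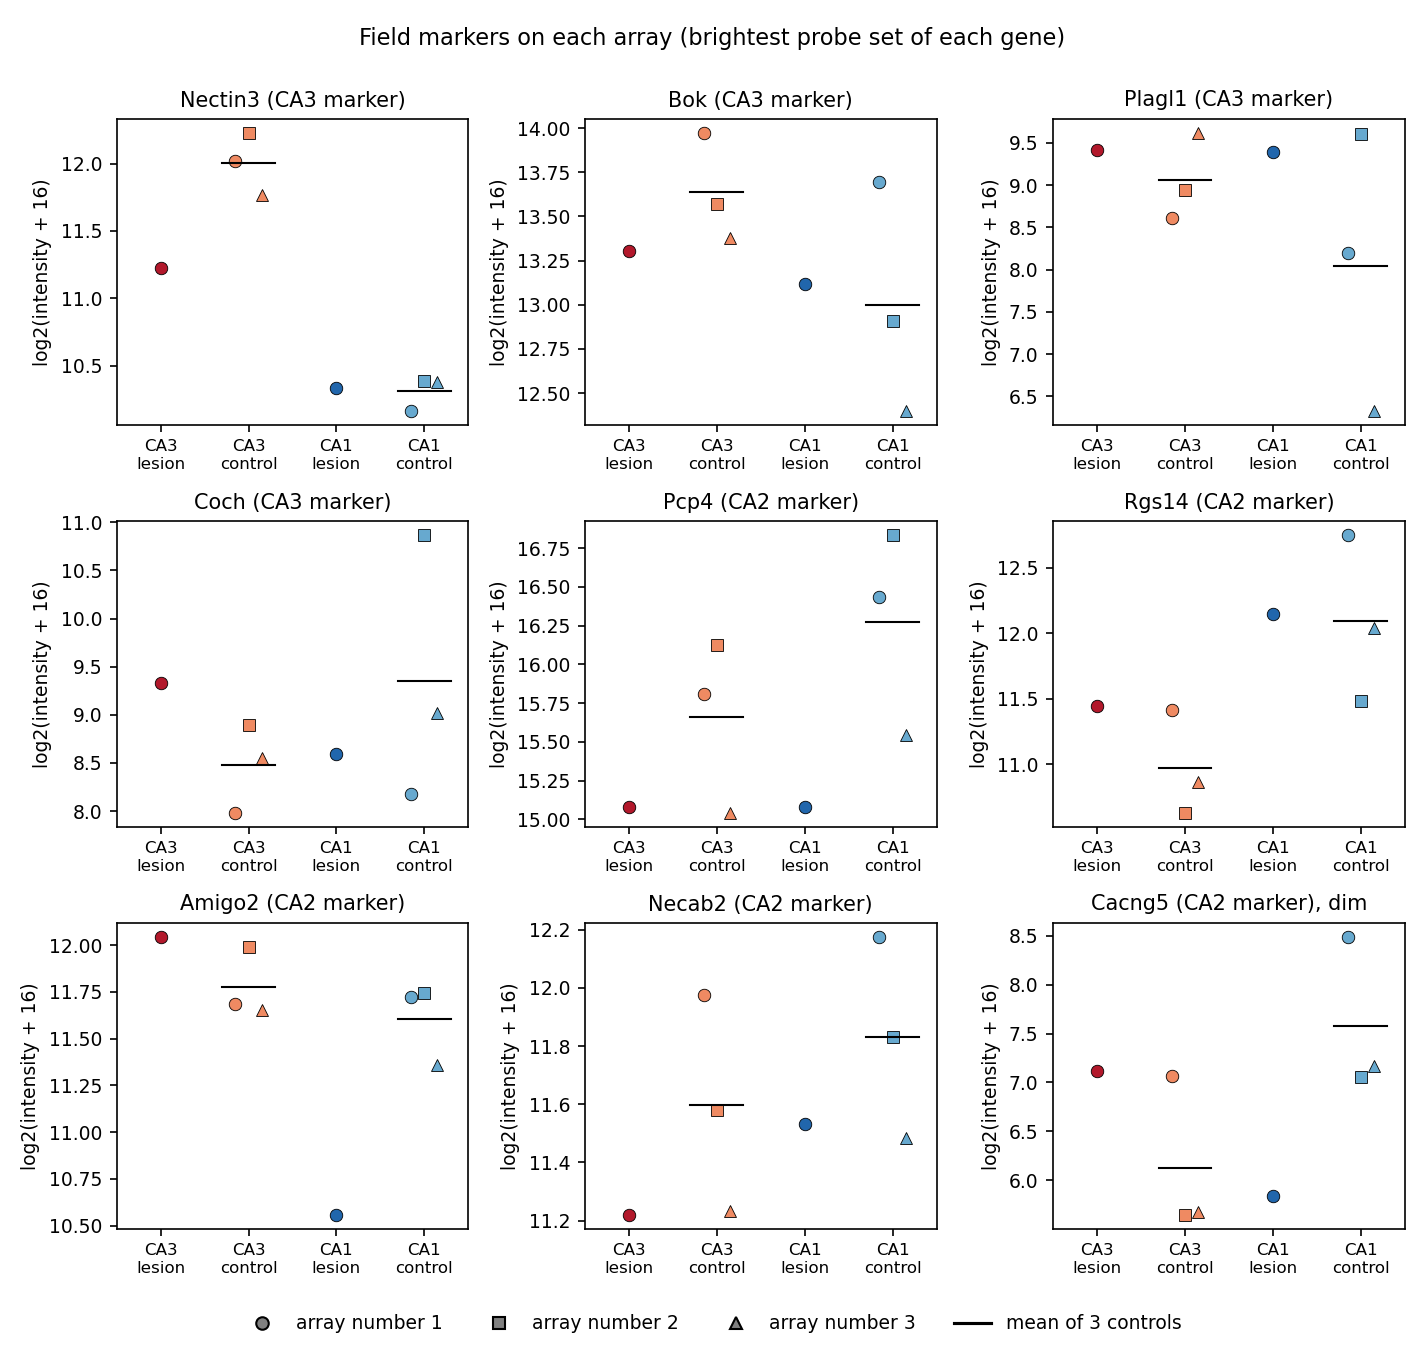
Log2(intensity + 16) of the brightest probe set of each of the 9 measured genes on each array, by group, with the number of the array as the symbol and the mean of 3 controls as a line. Nectin3 is higher and Rgs14 lower in every CA3 control than in every CA1 control, and the other genes overlap.

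Of the 4 tested CA2 markers, 3 had lower means in CA3 (Rgs14, Pcp4 and Necab2) and Amigo2 a higher one. In the limma fit without the array number as a block 0 passed the threshold, with Rgs14 alone at an unadjusted p under 0.05. With that block, which the labels do not state, Rgs14 and Pcp4 passed, as given below with the dependence on processing. Rgs14, a scaffold that regulates G protein signalling and in mouse limits synaptic potentiation in CA2 neurons, measured 11.42, 10.63 and 10.87 in the CA3 controls, against 12.75, 11.48 and 12.04 in the CA1 controls (1369045_at). The highest CA3 control lay just below the lowest CA1 control. The difference was -1.12 ± 0.34 (SE, n = 3 each, adjusted p = 0.326 in limma), a level 2.18-fold lower in CA3, with a 95% interval of -1.87 to -0.38.

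Pcp4 encodes a small calmodulin-binding protein and was among the brightest probe sets of the array, at the 99.1 percentile. It measured 15.81, 16.12 and 15.04 in the CA3 controls, against 16.43, 16.84 and 15.54 in the CA1 controls (1368145_at). CA1 control 3 lay below CA3 controls 1 and 2, and the difference was -0.61 ± 0.34 (SE, n = 3 each, adjusted p = 0.678 in limma), with a 95% interval of -1.37 to 0.15.

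Amigo2, a leucine-rich repeat adhesion protein, and Necab2, a neuronal calcium-binding protein, had overlapping values in the fields. Amigo2 measured 11.69, 11.99 and 11.65 in the CA3 controls, against 11.72, 11.74 and 11.36 in the CA1 controls (0.17 ± 0.22, adjusted p = 0.872, 95% interval -0.32 to 0.66). Necab2 measured 11.98, 11.58 and 11.23 in the CA3 controls, against 12.17, 11.83 and 11.48 in the CA1 controls (1368443_at). The difference of -0.23 ± 0.27 had an adjusted p = 0.853 in limma and a 95% interval of -0.83 to 0.36, so that for both genes a 2-fold difference between the fields lay outside the interval.

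Cacng5, an auxiliary subunit of AMPA-type glutamate receptors, lay at the 11.2 percentile of intensity and was too dim to be tested. It measured 7.07, 5.64 and 5.67 in the CA3 controls, against 8.49, 7.06 and 7.17 in the CA1 controls, which touch only between CA3 control 1 and CA1 control 2. With no filter on dim probe sets its difference was -1.44 ± 0.87 (SE, n = 3 each, adjusted p = 0.772 in limma). The dim second probe set of Necab2 (1396751_at) measured 8.87, 6.34 and 7.86 in the CA3 controls, against 8.59, 9.32 and 6.67 in the CA1 controls.

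Of the 10 tested member probe sets, 1 passed in limma between the fields, where 0.526% of all 18625 probe sets passed, 0.285% higher in CA3 and 0.242% lower. With an unadjusted p under 0.05 there were 2, Nectin3 and Rgs14, where 8.31% of all had one. Control arrays of the fields did not overlap for the same 2, with 1 higher in CA3 (6.06% of all) and 1 lower in CA3 (8.85% of all). Together that is 2 of 10, against 14.9% of all, a share near the background. The median difference was 0.83 over the 4 CA3 markers and -0.42 over the 4 tested CA2 markers by their brightest probe sets, against -0.04 over all probe sets.

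**Figure D3:**
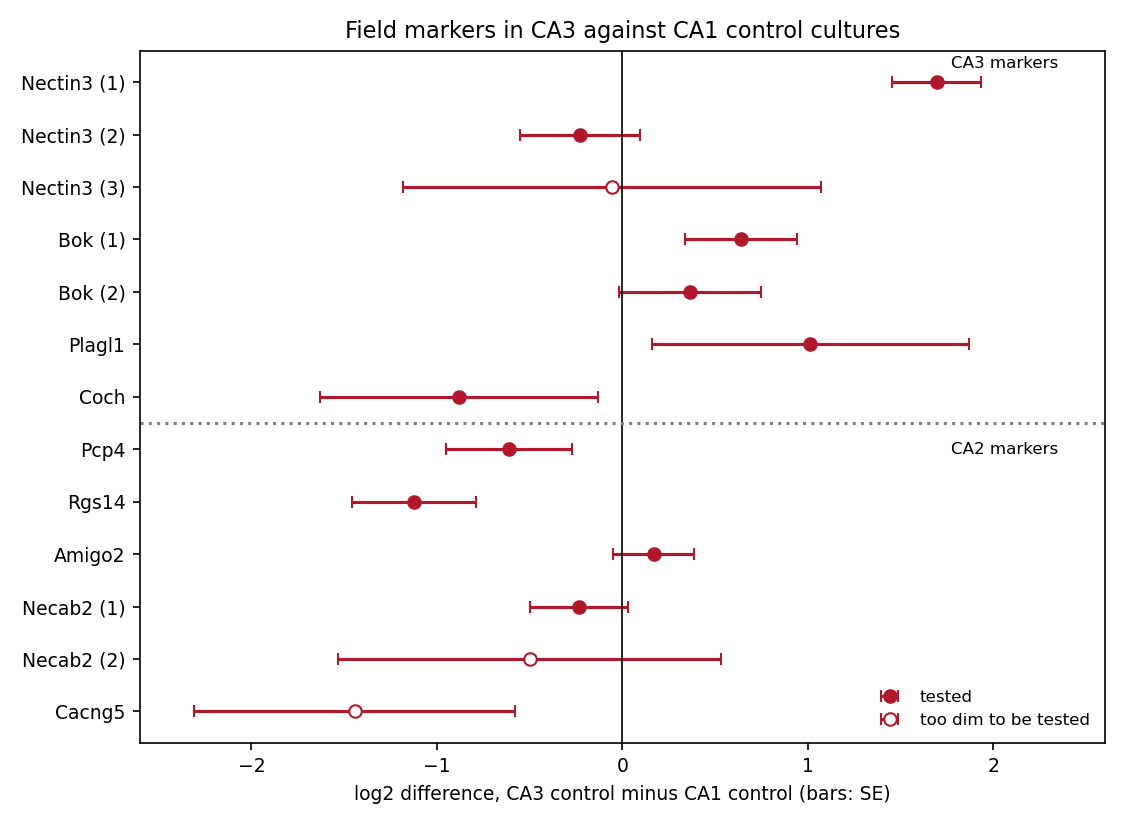
Log2 difference of each member probe set, CA3 control minus CA1 control, with SE bars (n = 3 arrays per field) and open symbols for probe sets too dim to be tested. Numbers in brackets rank the probe sets of a gene by brightness, and among the filled symbols only Nectin3 (1), at 1.69, passed the threshold.

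Further markers of the same fields were read for comparison, from lists drawn up with earlier results of these arrays known, so they give no independent support. Of 8 tested CA3 markers outside the members, 7 were higher in CA3, and 3 rose in CA3 past the threshold. These were Cpne4, a calcium-dependent membrane-binding protein (8.45-fold), Kcnq5, a potassium channel subunit (5.43-fold), and Rnf182, a ubiquitin ligase (2.34-fold), with limma adjusted p-values of 0.0158, 0.00748 and 0.0415. The list median was 1.05. Of 11 tested CA2 markers outside the members, 9 were lower in CA3 and 2 higher, 0 passed in limma, and the median was -0.32. The smallest p-values belonged to Actn2, an actin crosslinker (-1.14 ± 0.33), and Gsto1, a glutathione transferase (-0.79 ± 0.23), both with an unadjusted p of 0.006 and an adjusted p = 0.308. The CA1 list stood at a median of -2.29.

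Other genes followed the pattern of Nectin3 over the 8 arrays closely. Nptx1, a neuronal pentraxin, Nr4a3, an activity-regulated nuclear receptor, and Ncald, a neuronal calcium sensor, had the highest Pearson correlations with its brightest probe set among 13967 probe sets with another single gene symbol, at 0.981, 0.980 and 0.980. Nptx1 measured 16.24, 16.41 and 15.86 in the CA3 controls, against 14.39, 14.49 and 14.03 in the CA1 controls. For Rgs14 the most alike were Phf24 (0.955), the importin Ipo4 (0.954) and the acetyltransferase subunit Naa20 (0.950). In all 87 probe sets exceeded 0.9 for Nectin3 and 30 for Rgs14. The points are only 8 arrays, which fall into fields and share replicate numbers and levels of glial markers.

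Among the members themselves, the lowest correlation was that of Nectin3 with Rgs14 (-0.848 over 8 arrays) and the highest that of Pcp4 with Necab2 (0.767), followed by Rgs14 with Cacng5 (0.713). Some CA3 markers had negative correlations with each other, with Bok and Coch at -0.567 and Nectin3 and Coch at -0.299. So did Rgs14 and Amigo2 among the CA2 markers, at -0.464.

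In the lesion cultures no member passed the threshold in the limma fit without a replicate block, and neither did any other probe set in that fit. These comparisons use the same control arrays as that between the fields, and each lesion group is a single array taken to vary like the controls. Nectin3 measured 11.23 in the CA3 lesion array, against 12.02, 12.23 and 11.77 in the CA3 controls, a difference of -0.78 ± 0.34 (SE, 1 array against 3). It measured 10.33 in the CA1 lesion array, against 10.16, 10.39 and 10.38 in the CA1 controls (0.02 ± 0.34). The CA3 lesion array thus lay below all its controls but above the CA1 arrays. By group means the order was CA3 control, CA3 lesion, CA1 lesion and CA1 control, and the CA1 groups did not differ beyond the spread of the controls. The second probe set did not follow, at 10.68 in the CA3 lesion array, within its controls (-0.05 ± 0.46), and 10.82 in the CA1 lesion array, also within. The dim remaining probe set measured 9.35 in the CA3 lesion array, above its controls, and 7.20 in the CA1 lesion array, within. The difference between the lesion effects of the fields was -0.80 ± 0.48 by the brightest probe set (limma adjusted p = 0.9999).

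Pcp4 was lowest of all 8 arrays in CA3 control 3 and the lesion arrays. It measured 15.08 in the CA3 lesion array, against 15.81, 16.12 and 15.04 in the CA3 controls, and 15.08 in the CA1 lesion array, against 16.43, 16.84 and 15.54 in the CA1 controls. The CA1 lesion array lay below all its controls, at -1.36, -1.76 and -0.47 from them, while the CA3 lesion array lay within its own. The mean lesion effect over both fields was -0.89 ± 0.34 (SE, 2 lesion arrays against 6 controls, limma unadjusted p = 0.0261, adjusted p = 0.771). Pcp4 was the only member with an unadjusted p under 0.05 there, and 6.41% of all probe sets had one. Without control 3 of both fields, a fit chosen after seeing the data, the effect of Pcp4 was -1.22. Control 3 had the lowest Pcp4 value of the controls in each field, so leaving it out could only make the effect more negative. Beside it, all 12 pan-neuronal genes had a mean lesion effect below 0, with a median of -0.33. Values were -0.87 for Rbfox3 and -0.77 for Neurod6. In the limma fit without a replicate block 0 of the 12 passed. Their part in the value of Pcp4 was not tested.

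The lesion arrays lay on opposite sides of their controls for Amigo2. It measured 12.04 in the CA3 lesion array, against 11.69, 11.99 and 11.65 in the CA3 controls, and 10.56 in the CA1 lesion array, against 11.72, 11.74 and 11.36 in the CA1 controls. The CA3 lesion array was above all its controls by 0.06 to 0.39. The CA1 lesion array was below all its controls, at -1.16, -1.19 and -0.80 from them, and the lowest of the 8 arrays. The lesion effect in CA3 minus that in CA1 was 1.32 ± 0.44 (SE), which ranked 147 of 18625 probe sets by p (limma unadjusted p = 0.0132, adjusted p = 0.9999). Amigo2 was the only tested member with an unadjusted p under 0.05 in that difference, which 3.09% of all probe sets had. Arrays in this arrangement, above in CA3 and below in CA1, were found for 6.1% of all probe sets.

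The dim Cacng5 had the same arrangement, at 7.11 in the CA3 lesion array, against 7.07, 5.64 and 5.67 in the CA3 controls, and 5.84 in the CA1 lesion array, against 8.49, 7.06 and 7.17 in the CA1 controls. Rgs14 measured 11.44 in the CA3 lesion array, 0.03 above the highest CA3 control, and 12.15 in the CA1 lesion array, within its controls. Necab2 measured 11.22 in the CA3 lesion array, 0.01 below the lowest CA3 control, and 11.53 in the CA1 lesion array, within its controls. The dim second probe set of Necab2 measured 7.65 in the CA3 lesion array, within its controls, and 6.08 in the CA1 lesion array, below its controls. By group means the order of Rgs14 from high to low was CA1 lesion, CA1 control, CA3 lesion and CA3 control. Its CA1 groups differed by less than the SD of the CA1 controls (0.64), and its CA3 groups by 0.47 ± 0.47 (SE).

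Of the CA3 markers beside Nectin3, Bok measured 13.30 in the CA3 lesion array, below the lowest CA3 control by 0.08, and 13.12 in the CA1 lesion array, within its controls. The second Bok probe set measured 11.47 in the CA3 lesion array and 11.58 in the CA1 lesion array, within the controls of each field. Plagl1 measured 9.41 in the CA3 lesion array and 9.39 in the CA1 lesion array, within the controls of each field. Coch measured 9.33 in the CA3 lesion array, above its controls by 0.44 to 1.35, and 8.59 in the CA1 lesion array, within its controls.

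In all, 6 of the 10 tested member probe sets lay outside the range of their controls in the CA3 lesion array, 3 above and 3 below, where 54.4% of all probe sets did so, 29.7% above and 24.8% below. In the CA1 lesion array 2 of 10 lay outside, both below, where 46% of all did and 24.8% lay below. These shares are near the background or under it. The median mean lesion effect was -0.10 over the 10 probe sets, with 4 higher and 6 lower, against 0.02 over all. In limma without a replicate block, 0 members and 0% of all probe sets passed for the mean lesion effect. The difference between the fields also had 0 members and 0% of all past the threshold.

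**Figure D4:**
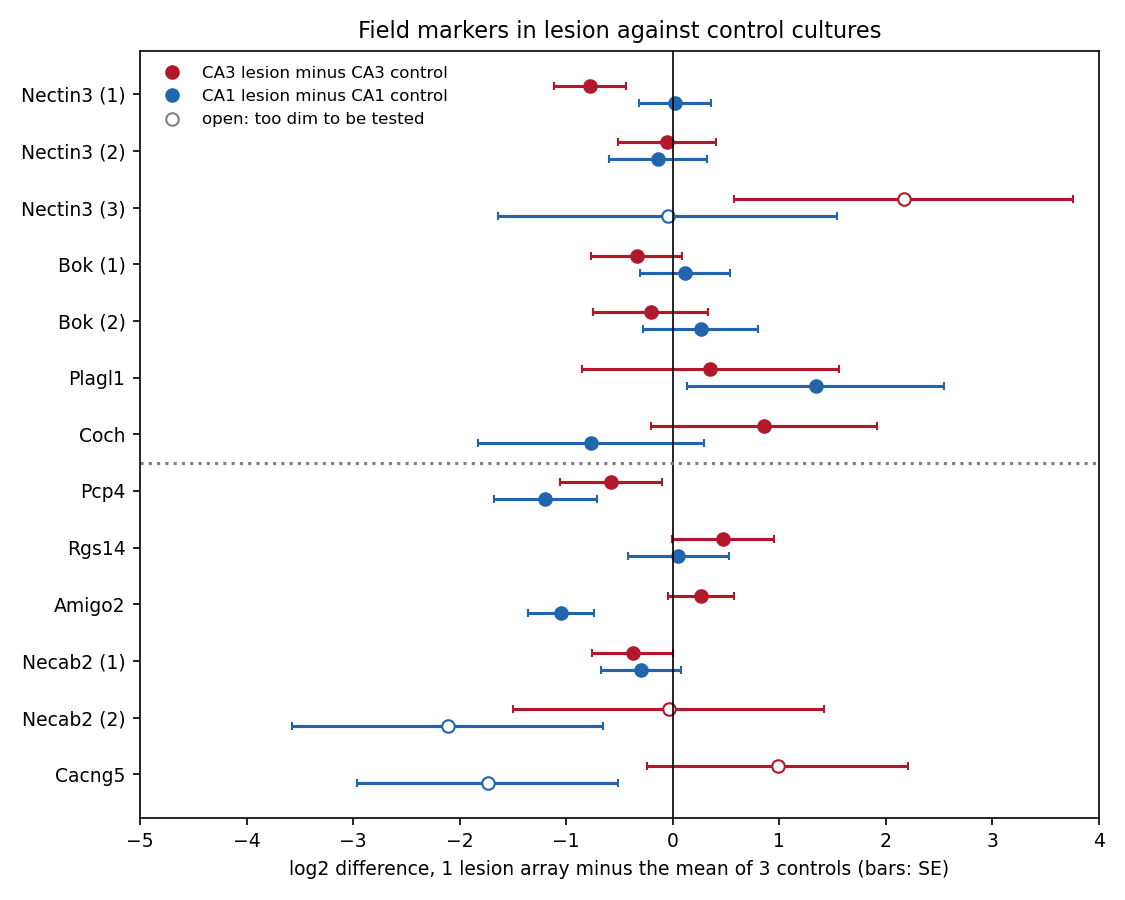
Log2 difference of each member probe set, lesion array minus the mean of 3 control arrays, in CA3 and in CA1, with SE bars from the limma fit and open symbols for probe sets too dim to be tested. Amigo2 lies at 0.27 in CA3 and -1.05 in CA1, and Pcp4 is below 0 in both fields.

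The other field markers did not pass in that fit either. For the mean lesion effect the CA3 list outside the members had 6 of 8 genes lower (median -0.21), with the smallest p for the kainate receptor subunit Grik4 (-1.48 ± 0.38, limma adjusted p = 0.673) and the RNA-binding protein Elavl2 (-0.56 ± 0.21, adjusted p = 0.771). The CA2 list had 9 of 11 lower (median -0.25), with the smallest p for Adcy5, an adenylyl cyclase (-1.68 ± 0.48, limma adjusted p = 0.771), and Acan, the perineuronal net protein aggrecan (-0.91 ± 0.63, adjusted p = 0.812). The CA1 list stood at a median of 0.02, and its smallest p-values belonged to Ccn3 (0.70) and Man1a1 (0.36). For the lesion effect in CA3 minus that in CA1 the smallest p-values in the CA3, CA2 and CA1 lists were those of Grik4 (1.54) and Cpne4 (0.75), Adcy5 (-3.16) and Sostdc1 (2.04), and Pou3f1 (1.65) and Mpped1 (0.65), all with a limma adjusted p of 0.9999.

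The level of glial markers differed between the control arrays, and some members moved with it. The level of 11 tested microglia and macrophage markers, as the median deviation from the mean of the 8 arrays, was 1.61 in the CA3 lesion array, against -1.90, -1.25 and 1.25 in CA3 controls 1 to 3, and 2.14 in the CA1 lesion array, against -2.08, -0.95 and 1.34 in CA1 controls 1 to 3. Control 3 of each field therefore stood with the lesion arrays. The 8 tested myelin markers had 1.22 in the CA3 lesion array, against -1.77, -0.15 and 1.10 in the CA3 controls, and 1.31 in the CA1 lesion array, against -2.58, -0.10 and 1.12 in the CA1 controls.

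Necab2 and Pcp4 were low where these levels were high. Over the 8 arrays Necab2 correlated at -0.843 with the microglia level and -0.916 with the myelin level, and Pcp4 at -0.815 and -0.669. With the level of the interneuron markers Necab2 correlated at 0.860 and Pcp4 at 0.776. Both Pcp4 and Necab2 lay lower in control 3 than in controls 1 and 2 within each field. Nectin3 (-0.204) and Rgs14 (-0.0153) had correlations nearer 0 with the microglia level, while Bok stood at -0.599 and Amigo2 at -0.494. Bok correlated at 0.823 with the level of 12 pan-neuronal genes, which was -0.09 in the CA3 lesion array, against -0.10 to 0.70 in the CA3 controls, and -0.49 in the CA1 lesion array, against -0.51 to 0.10 in the CA1 controls. The pan-neuronal ranges overlapped but reached higher in CA3 controls, beside the higher means of Nectin3 and Bok there. Of the 12 genes 11 were higher in CA3 controls, with a median difference of 0.51, against -0.04 over all probe sets. Among them Nefl alone passed the threshold (1.13, limma adjusted p = 0.0277). The 8 tested interneuron markers reached lower in CA3, at -0.40 to -0.02 in the CA3 controls, against -0.12 to 0.59 in the CA1 controls, beside the lower means of Rgs14 and Pcp4. These values describe arrays that share number and field, and the part of cell composition in the members' results was not tested.

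**Figure D5:**
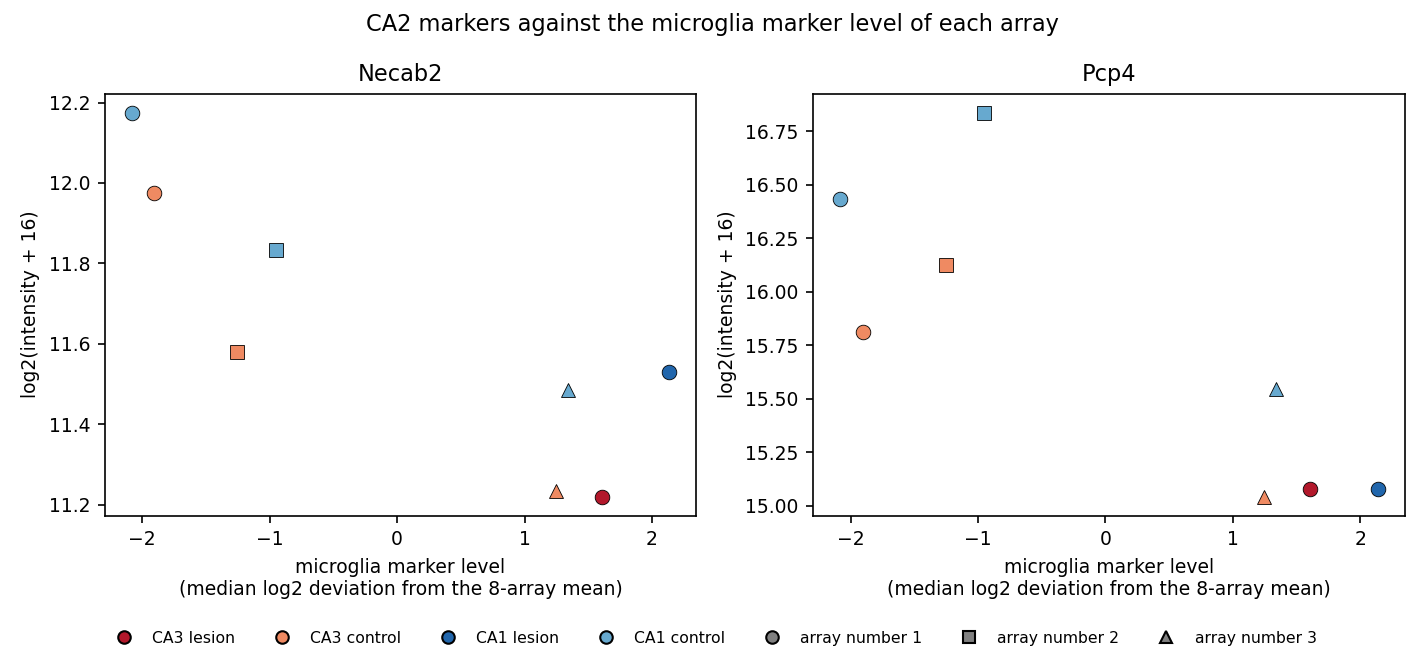
Log2(intensity + 16) of Necab2 and Pcp4 on each of the 8 arrays, against the median log2 deviation of 11 microglia and macrophage markers from their mean over the arrays. Both genes are lower on the 4 arrays with a level above 0 (the lesion arrays and control 3 of each field) than on the other 4.

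Markers of other cell types were read in the same way. The median CA3 minus CA1 control difference was -0.26 over 9 astrocyte markers, -0.93 over 4 endothelial and mural markers and -0.02 over 3 dentate granule cell markers, with 0 genes past the threshold in each. It was 0.81 over 8 fibroblast and meningeal markers, of which 1 passed, Ptgds, a prostaglandin D synthase. The mean lesion effect was 0.41 over the astrocyte, 0.14 over the endothelial and mural, 0.36 over the dentate and 0.27 over the fibroblast lists. It was 2.50 over the microglia and macrophage list, with 11 of 11 genes above 0, 1.70 over the myelin list, with 8 of 8 above 0, and -0.35 over the interneuron list, with 6 of 8 below 0. None of these genes passed for the mean lesion effect in the limma fit without a replicate block.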

How the data were processed

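The deposited values were signal intensities, 1 per probe set and array, on a linear scale. The near-equal trimmed means are from the values, from which scaling by the authors was inferred. Which software made them, and how it summarised probes, is not given in any source used here. Intensities were converted to log2(value + 16), 57 control probe sets were removed, and probe sets with a mean under the 40th percentile (8.35) were left out, so 18625 of 31042 were tested. Symbols were read from the platform table, where 20826 of the 31042 have 1 symbol, 436 have several and 9780 have none. No probe set with several symbols held a member.

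Using limma 3.58.1 (R 4.3.3), every tested probe set was modelled with a mean for each group, variances that follow intensity and 4 residual degrees of freedom. Benjamini-Hochberg adjustment ran over all tested probe sets (threshold 0.05). Unless an alternative is named, limma results are from this fit, which has no replicate block. With 1 array in each lesion group, only the controls inform the spread. The fit was tested on simulated data. Arrays have no depth, and their number limits the precision.

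All members are named. For other field markers, those past the threshold or else the 2 with the smallest p per list are named, and for Nectin3 and Rgs14 the 3 most alike genes. A gene in a list is read by its brightest probe set. Members and lists were chosen with earlier results of these data known. The alternatives comprised a pseudocount of 1 or 64, quantile normalisation, a stricter filter (60th percentile) or none, variances without the trend, the replicate number as a block, the 6 controls alone and each array left out. Fits without control 1, or control 3, of both fields were chosen after seeing the data.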

Additional observations from a re-analysis of the deposited data

Results flagged for a closer look

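Amigo2 stood out because the lesion arrays lay beyond all 3 controls of their field in opposite directions, above in CA3 and below in CA1. That arrangement was found for 6.1% of all probe sets. The lesion effect in CA3 minus that in CA1 was 1.32 on the log2 scale. The interaction test in limma gave an unadjusted p = 0.0132 and an adjusted p = 0.9999. The difference ran from 1.22 to 1.44 over 15 alternatives and passed the threshold in 0 of them. All 15 kept the same lesion arrays, from which the gene was flagged, so their agreement gives no separate support. Cacng5 had the same arrangement, with a difference of 2.72 ± 1.73 (SE) in the fit with no filter (limma adjusted p = 0.9999). Its CA3 lesion array exceeded the highest CA3 control by 0.05 only, and the probe set is dim. Each of these directions rests on 1 lesion array per field.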

How the results depend on the processing

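Nectin3 (brightest probe set) was higher in CA3 controls in all 18 alternatives, at 1.58 to 1.85, and past the threshold in 12 of them. With no intensity trend, 0 probe sets and 0 members passed between the fields (1533 probe sets had an unadjusted p under 0.05). When single arrays were left out, 24 to 104 probe sets and 0 to 1 members passed between the fields, and 0 to 1 probe sets for the mean lesion effect. The fits chosen after seeing the data gave 4 probe sets and 0 members between the fields without control 1 of both fields (Nectin3 adjusted p = 0.262), and 166 probe sets and 1 member for the mean lesion effect without control 3 of both fields, the member being Pcp4 (-1.22, limma adjusted p = 0.0141). For the difference of the lesion effects 0 probe sets passed in every alternative run, with 253 to 1112 at an unadjusted p under 0.05.

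Same-numbered control arrays of the fields shared a number in the labels. Their deviations from the group means correlated at 0.155, 0.0601 and 0.306 for numbers 1, 2 and 3, so the numbers were not taken as pairs, although every control correlated best with its own number, a hint from the data and not the design. With the replicate block, 358 probe sets and 3 members passed between the fields, the members being Nectin3 (limma adjusted p = 0.00359), Rgs14 (0.0163) and Pcp4 (0.0187), and 697 probe sets and 1 member, Pcp4 (-1.04, adjusted p = 0.00173), for the mean lesion effect. Of the field markers outside the members, Grik4 passed there too (limma adjusted p = 0.0402). Both lesion arrays bore number 1, so with the block the mean lesion effect averages each lesion array minus control 1 of its field. Control 1 had the lowest microglia level of each field (-1.90 in CA3 and -2.08 in CA1), and 2 residual degrees of freedom remained. Within the same number, Pcp4 was lower in CA3 by -0.62, -0.71 and -0.50, Cacng5 by -1.42, -1.42 and -1.49 and Necab2 by -0.20, -0.25 and -0.25. Rgs14 was also lower there, by -1.34, -0.85 and -1.18, and so was the CA3 marker Coch, by -0.19, -1.98 and -0.47. The CA2 marker Amigo2 differed by -0.03, 0.24 and 0.30. Lower in CA3 in all 3 numbers were 4 of 10 tested member probe sets, against 20.6% of all, and higher in all 3 were 2 of 10, against 15% of all.

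Small effects changed sign. For the mean lesion effect, Coch was -0.0485 with quantile normalisation, -0.37 without control 1 and -0.0200 without control 3 of both fields. Bok (brightest) was 0.15 without control 1 of both fields, and with the replicate block Rgs14 was -0.29, Bok (second) -0.27 and Nectin3 (second) 0.29. Without control 3 of both fields Bok (second) was -0.21 between the fields, -0.0924 for the mean lesion effect and 0.10 for the difference of the lesion effects, and Plagl1 was -0.12 between the fields and 0.15 for that difference. Without a lesion array, the mean lesion effect is that of the other field alone, which sets both ends of the next ranges except for Nectin3 (second). With single arrays left out, that effect ran from -0.78 to 0.0226 for Nectin3 (brightest probe set), -0.26 to 0.0407 for Nectin3 (second), -0.34 to 0.12 for Bok (brightest), -0.21 to 0.26 for Bok (second), -0.77 to 0.86 for Coch and -1.05 to 0.27 for Amigo2. The difference between the fields ran from -0.56 to 0.0429 for Nectin3 (second) and -0.0399 to 0.68 for Bok (second), and that of the lesion effects from -0.18 to 0.42 for Nectin3 (second) and -0.26 to 0.11 for Necab2. The sign changes with the replicate block follow from setting each lesion array against control 1 of its field alone. For the other sign changes the cause was not tested.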
